A study of Mus musculus with 8 samples.

Results

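Wnt signaling in hepatocytes was described here through the DNA methylation of 51 genes: 19 *Wnt* ligands, 10 frizzled receptors, the LRP co-receptors *Lrp5* and *Lrp6*, 10 secreted antagonists, 4 R-spondins, 3 Lgr receptors, and the feedback genes *Znrf3*, *Rnf43* and *Axin2*. The members were the CpGs in the body of these genes or within 1500 bases upstream of their start site on mm10, with at least 5 reads in every mouse after both strands were summed. This gave 3666 of the 897285 CpGs tested in the whole series, in 49 of the 51 genes. The study compared hepatocytes that perfusion had enriched from the livers of female C57Bl6/J mice at 2 ages, mid-aged at 40 weeks and young at 10 weeks, with 4 mice and 4 libraries at each age and no other treatment. Methylation was measured by reduced representation bisulfite sequencing (RRBS), which reads the ends of DNA fragments cut by *Msp*I at CCGG, and a methylation level is the percent of reads at a CpG that were methylated.

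Wnt ligands bind frizzled receptors together with LRP co-receptors, which keeps beta-catenin from being degraded and switches on target genes such as *Axin2* and *Lgr5*. Secreted frizzled-related proteins and *Wif1* capture the ligands, Dickkopf proteins block the LRP co-receptors, and R-spondins acting through Lgr receptors prolong the signal by removing the ubiquitin ligases ZNRF3 and RNF43. In the liver, *Wnt2*, *Wnt9b* and *Rspo3* from endothelial cells around the central vein maintain the metabolic program of pericentral hepatocytes, so many of these genes are known for their expression in cells other than hepatocytes.

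Of the 44 genes whose promoter could be read, 39 had a mean promoter methylation under 10%, beside 68.2% of all promoters tested. The test of single CpGs called 4 (0.109% of members, beside 0.163% of all tested CpGs). They lie in *Wnt5a* and *Fzd5* and were all higher in mid-aged mice. *Wnt5a*, a ligand known for beta-catenin-independent signaling, had its gains in intron 1, and *Fzd5*, a frizzled receptor, in its single coding exon. The windows that hold these CpGs are shown because no other member had a CpG that passed the test. Both are on the forward strand of GRCm38 (mm10) from RefSeq, 290 bases long, with tested CpGs in capitals. The *Wnt5a* window, chr14:28509247-28509536, holds 12 CpGs, all of them tested, and 2 *Msp*I sites, and the called CpGs are the 7th and 8th in capitals. The *Fzd5* window, chr1:64734956-64735245, holds 20 CpGs, of which 10 were tested, and 4 *Msp*I sites, and its called CpGs are the 2nd and 10th in capitals.
Wnt5a: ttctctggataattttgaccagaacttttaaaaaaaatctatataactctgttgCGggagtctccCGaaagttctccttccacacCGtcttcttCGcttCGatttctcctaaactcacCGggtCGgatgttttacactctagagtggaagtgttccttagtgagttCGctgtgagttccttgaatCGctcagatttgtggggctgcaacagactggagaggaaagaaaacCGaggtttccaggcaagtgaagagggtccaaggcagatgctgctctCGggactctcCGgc
Fzd5: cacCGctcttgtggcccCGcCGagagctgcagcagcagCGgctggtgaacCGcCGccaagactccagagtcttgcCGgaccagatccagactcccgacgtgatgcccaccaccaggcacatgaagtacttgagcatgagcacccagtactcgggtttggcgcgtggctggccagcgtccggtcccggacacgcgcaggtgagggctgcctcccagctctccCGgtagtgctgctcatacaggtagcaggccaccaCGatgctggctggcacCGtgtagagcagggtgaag

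Depth differed between the ages. Reads over CpGs numbered 84639955 to 118395064 in libraries of mid-aged mice and 46321447 to 72710972 in those of young mice, and the median reads per member CpG were 63 to 111 in mid-aged and 25.5 to 66 in young mice. Of the 29851 CpGs that the genome has in these genes, 9983 had reads in at least 1 mouse. Tested CpGs per gene ranged up to 213 in *Wnt5b*, with a median of 69 over the 49 genes. *Sfrp5* and *Dkk4*, both secreted antagonists, had 0 tested CpGs and *Wnt16* had 4, so nothing can be said of the first pair and little of the third. A methylation level is an average over all cells of a library, and a change within hepatocytes and a change in the share of other cells cannot be told apart. Promoters of marker genes could be read for 2 of 10 hepatocyte genes (mean 18.2 to 25.5% in mid-aged and 10.99 to 22.4% in young mice), 2 of 8 Kupffer cell and leukocyte genes (85.8 to 96.1% and 81.4 to 93.7%), 1 of 6 endothelial genes (0.715 to 3.81% and 0.742 to 7.09%), 6 of 6 stellate cell genes (17.9 to 19.6% and 18.3 to 20.6%) and 2 of 6 cholangiocyte genes (38.8 to 42.7% and 31.1 to 41.3%). The ages overlapped in the mean of each of these lists. Of their single promoters, *Reln* of stellate cells (6.53 to 7.19% in mid-aged and 5.54 to 5.65% in young mice) and *Sox9* of cholangiocytes (1.81 to 2.43% and 0.872 to 1.38%) were higher in every mid-aged than in every young mouse. The part of other cells in the results below was not tested.

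Methylation followed the distance from the start site much more than age. Within 500 bases after the start, 726 of 732 member CpGs (99.2%) had a mean under 20%, and each mouse averaged between 1.94 and 2.55%. Upstream of the start 521 of 553 (94.2%) were under 20%, and between 500 and 1500 bases 609 of 640 (95.2%) were. Beyond 1500 bases 736 of 1741 CpGs (42.3%) were under 20% and 664 (38.1%) were over 80%, and the means per mouse were 47.6 to 48.1% in mid-aged and 46.6 to 47.3% in young mice. The 4 mid-aged means lay above the 4 young ones in this last interval, and likewise upstream (6.15 to 6.37% and 5.75 to 6.12%) and between 500 and 1500 bases (5.36 to 5.85% and 4.83 to 5.30%), while they overlapped within 500 bases after the start. Over all tested CpGs of the genome the means were also apart, at 44.21 to 44.27% in mid-aged and 43.65 to 44.10% in young mice.

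Promoters were tested as the mean of the CpGs from 1500 bases upstream to 500 bases downstream of the start site, with at least 3 tested CpGs, which 44 of the 51 genes had. Without one were *Wnt8a*, *Wnt8b*, *Wnt10a*, *Wnt16*, *Sfrp5*, *Dkk4* and *Rnf43*. The median methylation of the 44 promoters was 2.93%, beside 2.44% over all 17684 promoters tested. Of the 44, 39 were under 10%, beside 68.2% of all promoters tested. By limma with Benjamini-Hochberg adjustment over all promoters, 0 of the 44 differed between the ages (lowest adjusted p = 0.159), beside 10 promoters (0.0565%) in the genome, and 3 of the 44 had an unadjusted p under 0.05, beside 1584 of the 17684 (8.96%). The differences ran from -1.90 to 2.63 percentage points with a median SE of 0.558, 32 of them positive and 12 negative. On M values (log2 ratios of methylated to unmethylated reads) limma also called 0 of the 44, with 11 at an unadjusted p under 0.05, beside 5078 of the 17684 promoters.

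**Figure D1:**
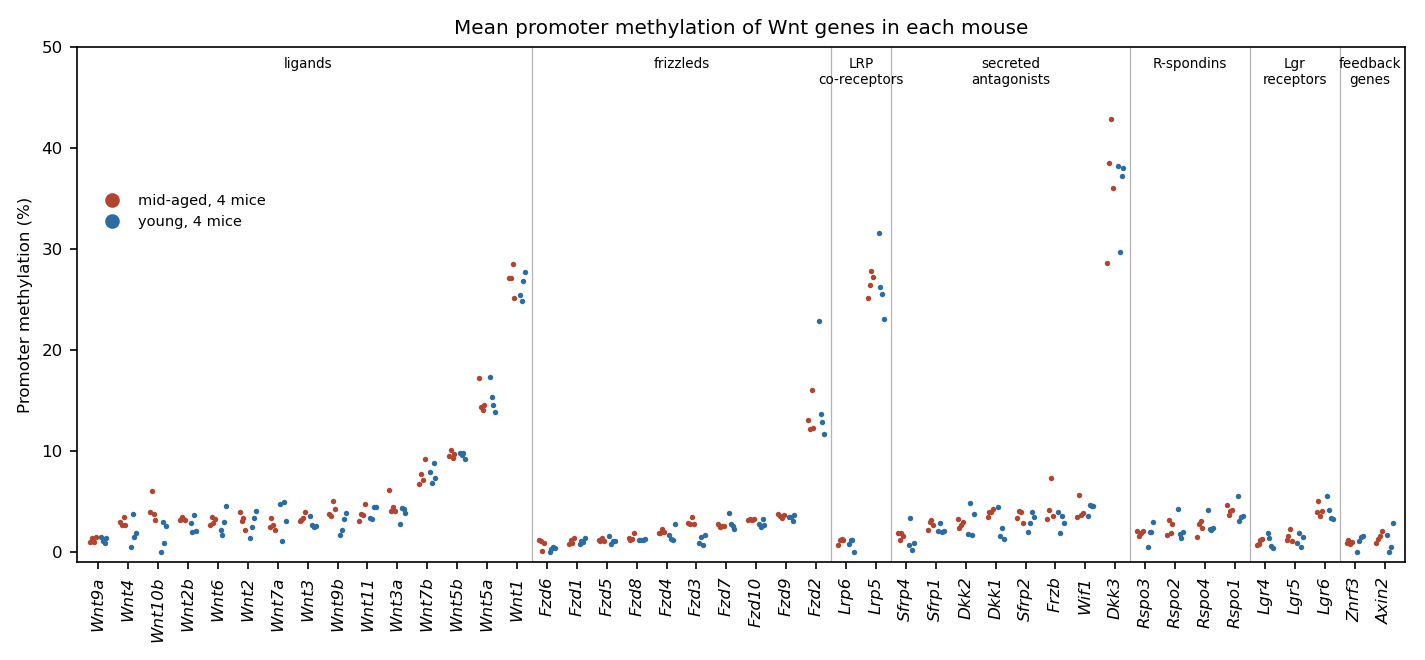
Mean promoter methylation (%, vertical axis) of the 44 genes with a testable promoter, grouped by role, with 1 point per mouse (red mid-aged, blue young). Of the 44 genes 39 lie under 10%, *Dkk3*, *Lrp5* and *Wnt1* stand highest, and the ages overlap in 42 genes.

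The 5 promoters with the least methylation were those of *Fzd6*, *Lrp6*, *Znrf3*, *Lgr4* and *Fzd1*. The receptor gene *Fzd6* had 1.22, 1.10, 0.107 and 0.927% in mid-aged and 0, 0.278, 0.529 and 0.384% in young mice. *Lrp6*, the co-receptor with the larger part in embryonic Wnt signaling, averaged 1.08 ± 0.235% and 0.772 ± 0.555% (SD, n = 4 each). *Znrf3*, the ligase that removes frizzleds from the membrane, averaged 0.979 ± 0.153% and 1.03 ± 0.722%. *Lgr4*, a receptor for R-spondins that hepatocytes express, averaged 0.993 ± 0.286% and 1.07 ± 0.686%, and *Fzd1* averaged 1.06 ± 0.290% and 1.04 ± 0.242%. The ages overlapped in each of these 5 promoters.

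The 5 most methylated promoters were those of *Dkk3*, *Lrp5*, *Wnt1*, *Wnt5a* and *Fzd2*. *Dkk3*, the most divergent Dickkopf gene, had 28.6, 38.5, 42.8 and 36.1% in mid-aged and 38.2, 29.7, 37.2 and 38.1% in young mice over 12 CpGs. One mouse of each age lay low, and the ages overlapped. The 10 promoter CpGs of the co-receptor gene *Lrp5* averaged 26.7 ± 1.13% and 26.6 ± 3.58%. *Wnt1*, a ligand of the developing brain, averaged 27.0 ± 1.35% and 26.2 ± 1.29% over 16 CpGs. In *Fzd2*, 8 CpGs averaged 13.4 ± 1.82% and 15.3 ± 5.14%, with young mouse 1 at 22.9% and the 7 others at 11.68 to 16.04%.

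Single CpGs were compared by a quasi-binomial test of methylated and unmethylated reads, with Benjamini-Hochberg adjustment over all 897285 CpGs. A call required the adjusted p to be under 0.05, the means to differ by 5 percentage points or more, and the methylation fraction to have a variance under 0.05 at each age. Of the 3666 member CpGs 4 were called (0.109%), all higher in mid-aged mice, beside 0.163% of all tested CpGs in either direction, 0.0615% of them called higher, and 0.174% of CpGs in any gene. The share of called members was thus near the background. By limma on M values 0 of the 3666 were called, with 525 at an unadjusted p under 0.05 (beside 115602 of all CpGs), while the quasi-binomial test gave 389 at an unadjusted p under 0.05 (10.6%, beside 9.09% of all CpGs). After the reads of every library were thinned to the smallest one, 2 member CpGs were called, of which 1 was among the 4. It was the *Wnt5a* CpG at 28509370, and the other call was in *Lgr6*. The second *Wnt5a* CpG and both *Fzd5* CpGs then had adjusted p of 0.0527 to 0.0540 by the quasi-binomial test. Over all tested CpGs 917 were called with thinned reads. Without young mouse 1, the library with the fewest reads, 16 were called, which included the 4, with 15 higher in mid-aged mice. Calls over all tested CpGs rose as well in that setting, from 1466 to 2405, of which 996 were higher and 1409 lower. The other 7 omissions of 1 mouse left 1 to 5 calls.

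Both called CpGs of *Wnt5a* lie in intron 1 of its 5-exon transcript on chromosome 14 (gene at 28504750 to 28527448, forward strand), within the antisense gene *Gm2670* (28508074 to 28511392) and before the start of a second coding transcript at 28511405, which is 2035 bases from the first of them. The CpG at 28509370, 4620 bases from the start site, was methylated at 31.3, 22.9, 34.1 and 27.0% in the mid-aged mice. The young mice had 3.75, 11.2, 15.8 and 12.2%. Every mid-aged mouse was above every young one, with 252 to 556 reads in mid-aged and 80 to 401 in young mice. The means were 28.8 ± 4.90% and 10.8 ± 5.08% (SD, n = 4 each), a difference of 18.1 percentage points (quasi-binomial test, adjusted p = 0.00653).

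The second called CpG of *Wnt5a*, at 28509413, had 23.9, 24.2, 28.0 and 21.0% in mid-aged and 11.3, 13.2, 14.8 and 12.8% in young mice. Again the ages did not overlap, at 24.3 ± 2.87% and 13.0 ± 1.44% (difference 11.3 percentage points, quasi-binomial test, adjusted p = 0.0297). By limma on M values the adjusted p were 0.240 and 0.401. With 1 mouse left out, the adjusted p of the first CpG ran from 0.000438 to 0.0530 by the quasi-binomial test and passed 0.05 only without mid-aged mouse 4. For the second CpG it ran from 0.0165 to 0.144 and was over 0.05 without mid-aged mouse 1, 2 or 3 or young mouse 2 or 4.

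The neighbors of these *Wnt5a* CpGs lay in the same direction. Within 250 bases of a called CpG, 14 CpGs from 28509199 to 28509533 were tested and all 14 were higher in mid-aged mice, 12 of them at an unadjusted p under 0.05. Their mean was 32.4, 27.7, 33.7 and 29.3% in mid-aged and 24.8, 17.7, 23.0 and 19.7% in young mice. The ages did not overlap, with means of 30.8 ± 2.76% and 21.3 ± 3.201%. These CpGs were chosen around the called ones, so the difference of 9.43 percentage points is given without a test. The most methylated of them, at 28509341, averaged 58.4 ± 3.97% and 47.2 ± 6.24% with adjusted p = 0.0825 by the quasi-binomial test.

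Around the second coding start of *Wnt5a*, from 1500 bases before to 500 after it, 28 CpGs were tested and 0 called (lowest adjusted p = 0.294 by the quasi-binomial test, 11 at an unadjusted p under 0.05). They averaged 30.2, 27.2, 34.1 and 24.3% in mid-aged and 30.9, 18.2, 22.6 and 16.4% in young mice, and young mouse 1 lay within the mid-aged range. At the annotated 5' end of the gene the promoter averaged 15.0 ± 1.496% and 15.3 ± 1.515% over 18 CpGs. The 12 CpGs upstream of that start held this methylation, with 21.6 ± 1.19% and 22.1 ± 1.87%, while 6 CpGs in the 500 bases after it had 1.79 ± 2.25% and 1.69 ± 2.12%.

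**Figure D2:**
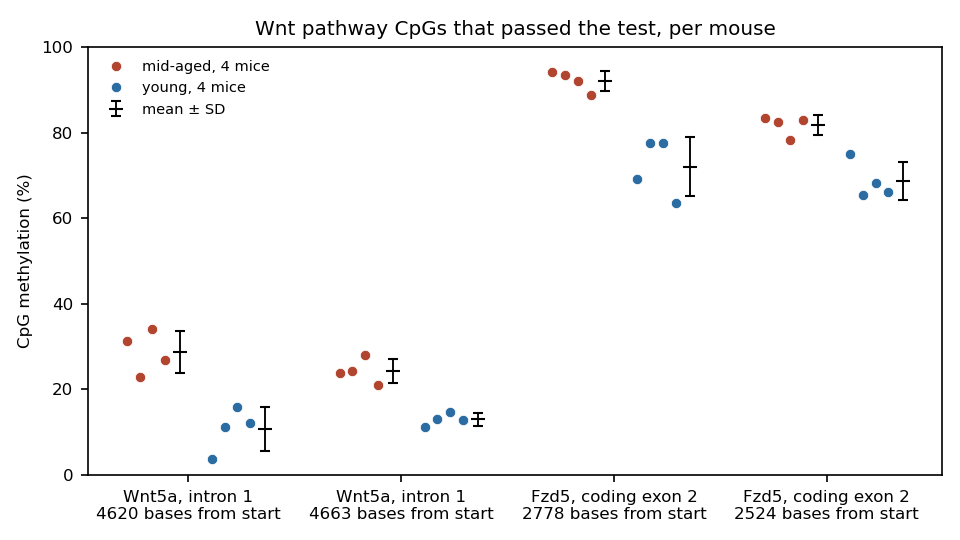
Methylation (%, vertical axis) of the 4 called CpGs in each mouse (red mid-aged, blue young), with the mean ± SD of 4 mice beside the points. At each CpG the 4 mid-aged mice lie above the 4 young mice, by means of 11.28 to 20.02 percentage points.

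*Fzd5* lies on the reverse strand of chromosome 1 (64730558 to 64737751), and its called CpGs are in exon 2 of 2, which holds the coding sequence. The CpG at 64734973, 2778 bases from the start site, was methylated at 94.2, 93.4, 92.0 and 88.7% in mid-aged mice. Young mice had 69.2, 77.7, 77.6 and 63.6%, from 26, 121, 58 and 33 reads. The ages did not overlap, with 92.1 ± 2.42% and 72.0 ± 6.86% (difference 20.02 percentage points, quasi-binomial test, adjusted p = 0.0407).

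The other called CpG of *Fzd5*, at 64735227 and 2524 bases from the start, had 83.3, 82.6, 78.2 and 82.9% in mid-aged and 75.0, 65.4, 68.3 and 66.2% in young mice. All mid-aged mice were again above all young mice, at 81.8 ± 2.37% and 68.7 ± 4.37% (difference 13.0 percentage points, quasi-binomial test, adjusted p = 0.0108). By limma on M values the adjusted p were 0.221 at the first and 0.414 at the second CpG. With 1 mouse left out, the first CpG had adjusted p of 0.0242 to 0.208 by the quasi-binomial test and stayed under 0.05 only without young mouse 1. The second had 0.00113 to 0.0886 and was over 0.05 without mid-aged mouse 2 or 4 or young mouse 2.

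Within 250 bases of these CpGs, 26 CpGs of *Fzd5* were tested, of which 21 were higher and 5 lower in mid-aged mice. Their means were 89.97, 89.73, 89.71 and 88.21% in mid-aged and 73.3, 80.2, 81.8 and 76.0% in young mice, which do not overlap. The difference of 11.5 percentage points is likewise given without a test, since the called CpGs chose this stretch. The other 122 CpGs of the gene averaged 16.1 ± 0.707% and 14.4 ± 0.694%. *Fzd5* thus went from 1.04 ± 0.124% in mid-aged and 0.775 ± 0.375% in young mice within 500 bases after the start to 63.8 ± 1.64% and 56.5 ± 2.86% beyond 1500 bases. The ages were apart only in that far interval among the 4 distance intervals. It holds the 26 CpGs of the stretch around the calls, so this separation is not a further result.

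**Figure D3:**
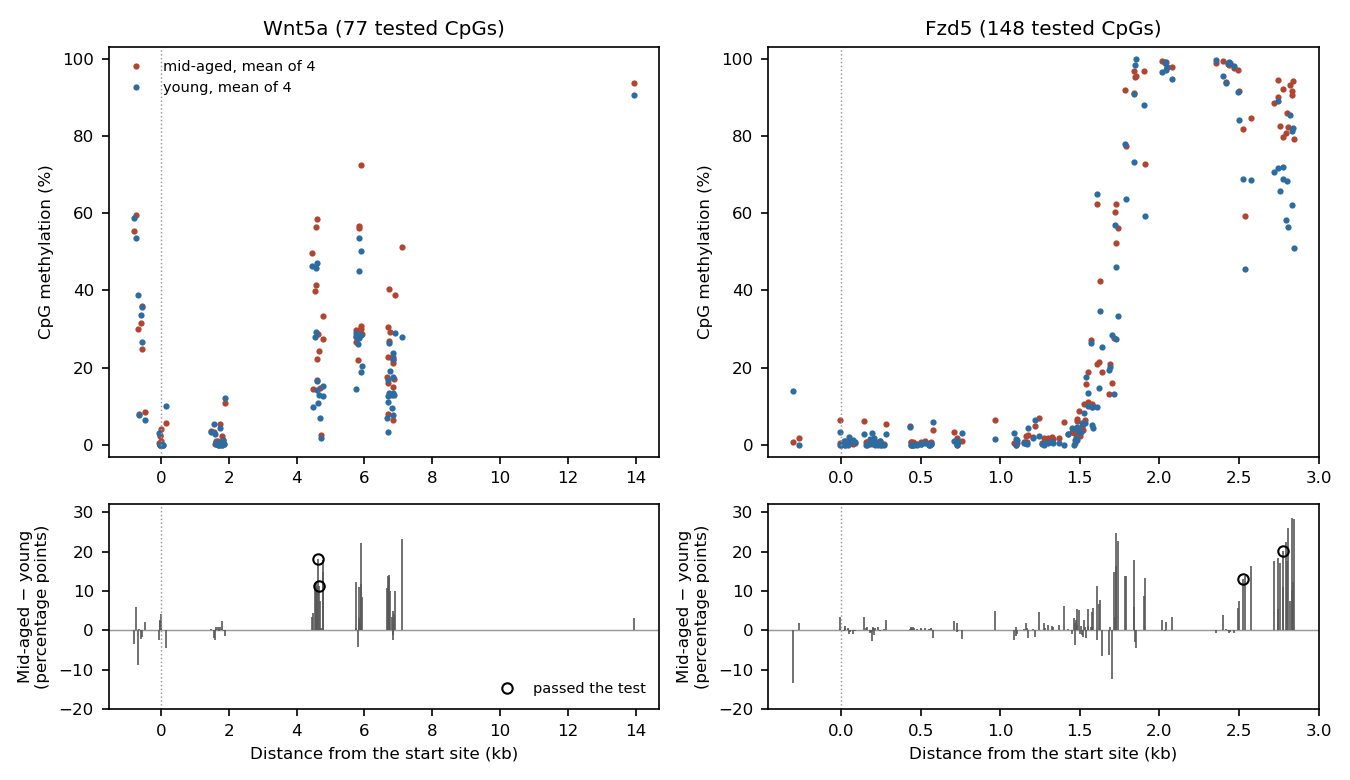
Methylation of every tested CpG of *Wnt5a* (77) and *Fzd5* (148) against the distance from the start site in kilobases: means of 4 mid-aged (red) and 4 young (blue) mice above, and mid-aged minus young in percentage points below, with called CpGs circled. The called CpGs stand among neighbors that are also higher in mid-aged mice, while CpGs within 1500 bases after the *Fzd5* start are under 10% at both ages.

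Without regard to the test, every mid-aged mouse was above every young mouse at 160 member CpGs (4.36%, beside 2.33% of all tested CpGs) and below at 21 (0.573%, beside 1.24%). After thinning to the read total of the smallest library, which does not equalize the coverage of each CpG, the first share was 2.85%, beside 1.70% of all tested CpGs. With at least 20 reads in every mouse it was 5.40% beside 2.98%, and without young mouse 1 it was 6.22% beside 3.76%. The median difference over member CpGs was 0.411 percentage points, beside 0.212 over all tested CpGs. The part of depth in these shares was not tested beyond these settings. Member CpGs were less methylated than all tested CpGs, and 2592 of the 3666 had a mean under 20%. Each mouse averaged 24.39 to 25.30% over members and 43.65 to 44.27% over all tested CpGs. These shares, and those by role below, were not compared at matched methylation or CpG density.

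By role, the frizzled genes held the largest share of such CpGs, 61 of 959 (6.36%) with mid-aged mice above, beside 8 of 200 (4%) in Lgr genes, 67 of 1688 (3.97%) in ligand genes and 13 of 333 (3.90%) in secreted antagonist genes. The R-spondin genes had 2.597%, the feedback genes 2.31% and the co-receptor genes 1.72%. After thinning the share was 3.28% of the frizzled CpGs, 2.85% of all members and 1.70% of all tested CpGs. Before thinning these were 6.36, 4.36 and 2.33%. Thinned shares of the other roles were not counted. Averaged over all 959 CpGs, the frizzled genes had 15.87, 15.98, 16.05 and 15.50% in mid-aged and 14.5, 14.8, 15.3 and 14.5% in young mice, so that the ages were apart, as they were over all members (24.97 to 25.30% and 24.39 to 24.65%) and over all tested CpGs. These CpGs share libraries and neighbors and are not independent, and no test was made over the group.

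Among frizzled genes, *Fzd5* gave 17 of 148 and *Fzd8* 11 of 145 CpGs with all mid-aged mice above. Of the 17 in *Fzd5*, 10 lie in the stretch around its called CpGs. *Fzd3* gave 8 of 42, *Fzd10* 7 of 98, *Fzd1* 6 of 131 and *Fzd2* 5 of 93. None of these genes gave a CpG with all mid-aged mice below. *Fzd9* gave 5 above and 2 below of 88, *Fzd7* 1 and 2 of 118, and *Fzd4* 1 and 1 of 69. *Fzd6* gave neither. Over all tested CpGs the shares were 2.33% above and 1.24% below. In the receptor gene *Fzd8* 138 of 145 CpGs were under 20%, and its 74 CpGs beyond 1500 bases averaged 7.85, 7.97, 7.49 and 7.57% in mid-aged and 6.05, 5.98, 5.32 and 4.81% in young mice. These ages did not overlap. *Fzd1* had 6.33 ± 0.778% and 3.97 ± 0.237% between 500 and 1500 bases, also without overlap, and 80.7 ± 2.57% and 78.3 ± 5.09% beyond.

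*Fzd3*, a receptor of planar cell polarity signaling, had 2.79 ± 0.549% and 1.45 ± 0.222% upstream of its start, with the ages apart, and 97.9 ± 0.566% and 96.1 ± 1.31% beyond 1500 bases. *Fzd9* had 11.6 ± 0.436% and 9.15 ± 1.61% between 500 and 1500 bases, again apart. *Fzd7* went the other way in that interval, with 2.72 ± 0.550% in mid-aged and 3.88 ± 0.343% in young mice. *Fzd4*, the endothelial receptor for norrin, had 89.96 ± 3.29% and 95.2 ± 2.76% beyond 1500 bases, and the ages overlapped. Over all members, all mid-aged mice were above in 4 of 34 genes upstream and 1 of 40 within 500 bases after the start. They were above in 4 of 33 genes between 500 and 1500 bases and 3 of 44 beyond, among them *Fzd5* with its called CpGs. In 1 gene, *Fzd7*, they were below. The share of such intervals over all genes of the genome was not counted.

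**Figure D4:**
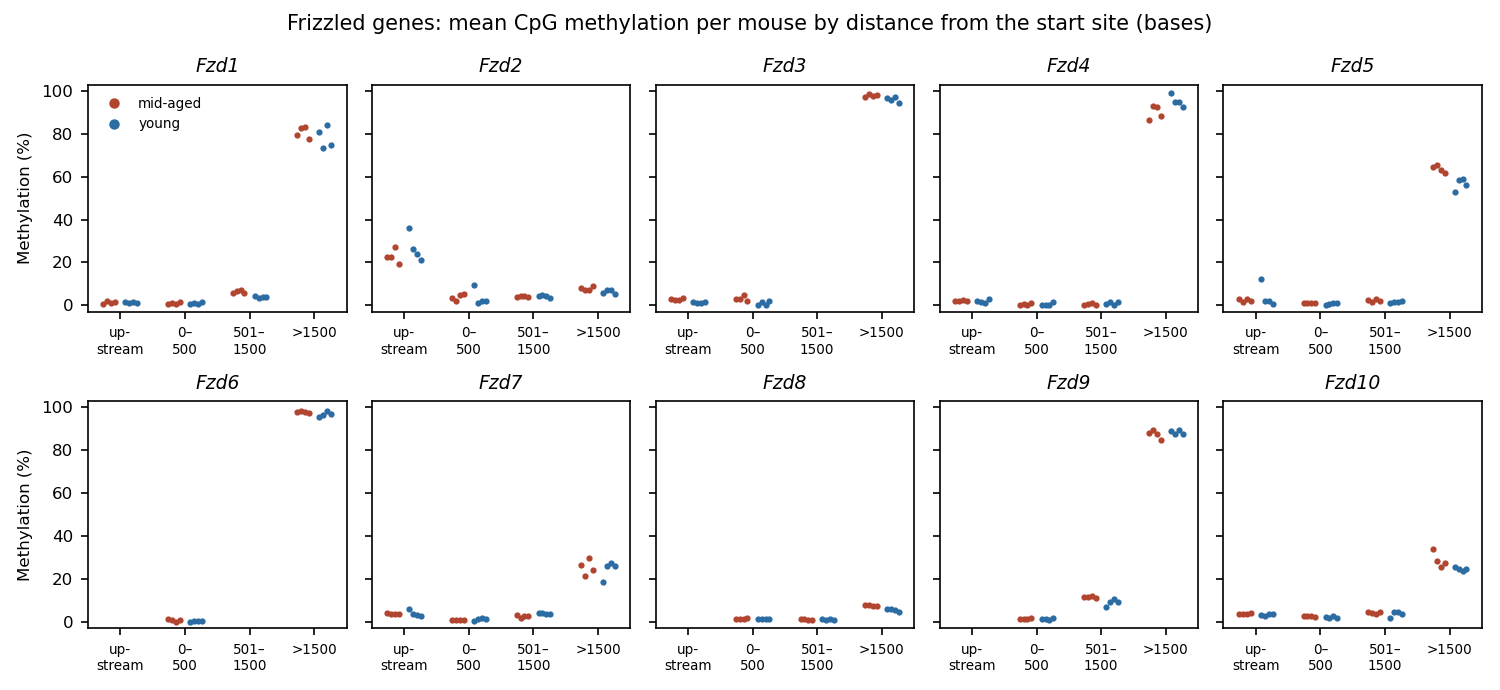
Mean methylation (%, vertical axis) of the tested CpGs of each frizzled gene in 4 intervals of distance from the start site in bases, with 1 point per mouse (red mid-aged, blue young) and intervals with under 3 CpGs left out. Methylation is low around every start except upstream of *Fzd2*, rises past 1500 bases in most genes but stays under 10% in *Fzd2* and *Fzd8*, and the ages are apart beyond 1500 bases in *Fzd5*, *Fzd8* and *Fzd10*. In *Fzd5* that interval includes the called CpGs.

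Several CpGs lay just past the threshold, with adjusted p from 0.05 to 0.1 by the quasi-binomial test, and are named here after their values were seen. There were 9 of them, 3 in *Wnt5a*, 2 in *Fzd1* and 1 each in *Fzd5*, *Fzd8*, *Lrp5* and *Wnt6*. In the only exon of *Fzd1*, the CpG at 4756556 of chromosome 5 had 43.5, 50.5, 60.9 and 42.9% in mid-aged and 18.8, 16.1, 34.4 and 21.8% in young mice (adjusted p = 0.0842). In the only exon of *Fzd8*, a CpG 2755 bases from the start on chromosome 18 had 57.8, 63.5, 59.3 and 63.2% against 32.5, 33.7, 50.9 and 40.5% (adjusted p = 0.0755). In both CpGs the ages did not overlap. Without young mouse 1 the test called 2 CpGs of *Fzd1*, and without young mouse 3 it called 1 of *Fzd8* and 1 of *Fzd1*. The other omissions of a mouse called no CpG of either gene.

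The CpG of *Lrp5* went in the opposite direction. It lies at 3652212 of chromosome 19, in coding exon 3 of 23, and had 59.5, 59.0, 66.7 and 53.4% in mid-aged against 79.3, 75.0, 78.6 and 79.2% in young mice (adjusted p = 0.0686). *Wnt6* had 0% in all 4 mid-aged mice at 74784562 of chromosome 1 and 31.8, 12.5, 0 and 0% in young mice, from 22, 32, 10 and 21 reads. The difference in *Wnt6* rested on 2 young mice. Without young mouse 4 the test called 1 CpG of *Wnt6*, and no omission of a mouse called one of *Lrp5*. Over the 116 CpGs of both co-receptor genes 0 were called by the quasi-binomial test, with 14 at an unadjusted p under 0.05. Over all tested CpGs these shares were 0.163% and 9.09%. The *Lrp5* body averaged 80.02 ± 0.755% and 81.4 ± 1.23%.

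Gene bodies, taken beyond 500 bases from the start, were tested for 46 of the 51 genes, and 0 differed by limma after adjustment over all 18318 gene bodies (lowest adjusted p = 0.0946, in *Fzd5*), beside 93 (0.508%) in the genome. Of the 46, 6 had an unadjusted p under 0.05, beside 2123 of the 18318 (11.6%). They were those of *Fzd5*, *Fzd8*, *Wnt5a* and *Rspo2* with higher and *Wnt2* and *Fzd4* with lower means in mid-aged mice. Their median methylation was 41.8%, beside 69.4% over all gene bodies. The lowest was that of *Rspo2*, with 2.59 ± 0.369% and 1.44 ± 0.295% over 8 CpGs within 1500 bases of the start, and the highest was that of *Fzd6*, with 97.9 ± 0.421% and 96.9 ± 1.122%. On M values limma called 0 of the 46, with 3 at an unadjusted p under 0.05, beside 2669 of the 18318.

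Of the ligand genes known to act in liver zonation, *Wnt2* had 79.9, 78.7, 82.2 and 83.5% in its body in mid-aged and 90.5, 86.9, 84.0 and 83.2% in young mice over 12 CpGs (difference -5.07 percentage points, limma adjusted p = 0.339). The ages overlapped at their edges. Its promoter averaged 3.13 ± 0.710% and 2.82 ± 1.16%. *Wnt9b* had promoter levels of 3.76, 3.57, 5.06 and 4.26% in mid-aged and 1.71, 2.17, 3.30 and 3.81% in young mice, which overlapped, and a difference of 1.41 ± 0.571 percentage points (SE, limma adjusted p = 0.530).

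The promoter of the R-spondin gene *Rspo3*, a regulator of pericentral gene expression, had 2.03, 1.62, 1.82 and 2.11% in mid-aged and 0.529, 1.99, 1.95 and 2.92% in young mice. The 4 R-spondin promoters lay between 1.87 and 4.02% over all mice. Of the 154 R-spondin CpGs 0 were called by the quasi-binomial test, with 6 at an unadjusted p under 0.05. Over all tested CpGs these shares were 0.163% and 9.09%. Among Lgr receptor genes, *Lgr5*, a target and marker of active Wnt signaling, had a promoter at 1.51 ± 0.509% and 1.20 ± 0.621% and 89.4 ± 0.883% and 88.7 ± 1.22% beyond 1500 bases. The other 2, *Lgr4* and *Lgr6*, likewise had promoters under 5%. Of the 200 Lgr CpGs 0 were called by the quasi-binomial test and 18 had an unadjusted p under 0.05. With thinned reads 1 CpG of *Lgr6* was called.

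Feedback genes showed the same contrast within the gene. *Axin2*, the classical target whose product takes part in the degradation of beta-catenin, had 1.45 ± 0.505% and 1.24 ± 1.26% within 500 bases after the start. Beyond 1500 bases it had 67.9 ± 0.618% and 66.9 ± 0.880%. *Znrf3* had 94.1 ± 1.15% and 93.3 ± 1.81% beyond 1500 bases. *Rnf43* could be read only there, in 28 CpGs at 84.5 ± 0.926% and 85.5 ± 1.66%. None of the 216 CpGs of these 3 genes was called by the quasi-binomial test, beside 0.163% of all tested CpGs. At 13 the unadjusted p was under 0.05, beside 9.09% of all tested CpGs.

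The secreted antagonist genes held 333 tested CpGs in 8 of 10 genes. By the quasi-binomial test 0 were called, beside 0.163% of all tested CpGs. An unadjusted p under 0.05 came at 30, beside 9.09% of all tested CpGs. Of the CpGs beyond 1500 bases 63 of 74 were over 80% methylated, the largest share among the roles. Of single genes, *Sfrp2* had 2.57, 2.92, 2.57 and 2.82% in mid-aged and 1.93, 1.93, 2.04 and 2.40% in young mice over 28 CpGs upstream of its start, a difference under 1 percentage point with the ages apart. *Wif1*, which binds Wnt ligands directly, rested on 3 CpGs between 500 and 1500 bases with 6.43 ± 1.53% and 1.88 ± 1.73%. Its 21 CpGs upstream of the start went the other way, with 3.74 ± 0.979% and 4.23 ± 0.348%, and the ages overlapped. *Sfrp4* was also lower in mid-aged mice over 7 CpGs between 500 and 1500 bases, with 55.2 ± 6.85% and 57.8 ± 2.96% and overlap. *Dkk1*, the antagonist of LRP co-receptors, had 10 tested CpGs, all near its start, at 3.93 ± 0.342% and 2.42 ± 1.42%.

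Of the ligand promoters, *Wnt10b* had the widest difference, with 3.93, 6.01, 3.75 and 3.19% in mid-aged and 0, 2.96, 0.833 and 2.56% in young mice over 6 CpGs (2.63 ± 0.8282 percentage points, SE, limma adjusted p = 0.399). *Fzd3* had the lowest p of any member promoter, at 2.95 ± 0.308% and 1.20 ± 0.457% (limma adjusted p = 0.159). In both genes the ages did not overlap. Ligand bodies spanned the range from *Wnt10a*, with 4.44 ± 0.407% and 3.81 ± 0.618% over 80 CpGs, to *Wnt16*, with 85.7 ± 7.30% and 85.0 ± 14.1% over 4.

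Outside *Wnt5a*, the ligand genes with most CpGs at which every mid-aged mouse was above every young one were *Wnt3* and *Wnt7b*, each with 9 of 148, and *Wnt10a*, with 7 of 82. *Wnt3* also had 1 CpG and *Wnt7b* 2 with all mid-aged mice below. These genes were picked by their counts. Over all ligand genes the share above was 3.97%. Over all tested CpGs the shares were 2.33% above and 1.24% below. *Wnt4*, a ligand of kidney and gonad development, had 3.66, 2.26, 4.89 and 3.19% in mid-aged and 0.905, 1.36, 1.92 and 1.84% in young mice over 13 CpGs upstream of its start. The ages were apart there, but beyond 1500 bases its 63 CpGs averaged 86.6 ± 0.925% and 86.3 ± 0.871%. *Wnt8a* was the ligand gene read only at intermediate levels, with 16 CpGs at 39.7 ± 4.83% and 35.2 ± 1.49%, and none of them lay under 20% or over 80%.

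The remaining genes of the pathway were read through a list of 56 further genes, from secretion factors to transcription factors, all with tested CpGs. Of their 4563 CpGs 10 were called (0.219%, quasi-binomial test), beside the 0.163% of all CpGs given above: 2 higher in mid-aged mice, both in *Kremen1*, a co-receptor of Dickkopf proteins, and 8 lower, in *Tcf7l1*, *Daam1*, *Daam2* and *Cxxc5*. *Daam2*, a formin linked to Wnt signaling, held 5 of the 8, with 4 in a run at 49458551 to 49458568 of chromosome 17 that averaged 44.9 ± 8.28% in mid-aged and 81.3 ± 8.17% in young mice. Neither direction nor share was tested against the 51 genes.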

How the data were processed

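RRBS libraries of hepatocytes came from 4 mid-aged and 4 young mice. The authors deposited a percent of methylated reads and a read count per CpG and strand on mm10. Both came from the DEEP project pipeline, unnormalized and with no pooling of mice. Per the submitters' processing notes, Picard 1.115, SAMtools 1.3, BWA 0.6.2, Trim Galore 0.4.2 and FastQC were used, with the program for the methylation calls not given in the sources used here. In RRBS a bisulfite-converted read cannot be told from a C-to-T variant, and reads carry no molecular identifiers.

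Methylated reads were recomputed from percent and coverage, strands were summed, and CpGs of chromosomes 1 to 19, X and Y with at least 5 reads in every mouse were kept. The age difference at each CpG came from an F test in a quasi-binomial logistic model, whose dispersion was moderated by limma 3.58.1 (R 4.3.3) and not allowed below 1. For promoters and gene bodies holding 3 or more tested CpGs, mean percent methylation was tested by limma with a trend. All p were two-sided and adjusted by Benjamini-Hochberg over all features of the genome. The test scripts were tested on simulated data. GENCODE vM21 gave genes, exons and introns with 1 transcript per gene. Computation used matplotlib 3.10.9, pandas 2.3.3, scipy 1.17.1 and numpy 2.4.6 under Python 3.11.15.

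The members and gene lists were chosen with earlier results of these data known. Values were to be named for members with a called CpG, for promoters past the test, and for the 5 highest and 5 lowest promoters by methylation, and other genes are named by role or as stated. The study tested CpGs by limma, which is an alternative here. The other alternatives were coverage minimums of 10 and 20 reads, a minimum difference of 10 percentage points, thinned reads, a replicate block, other promoter windows, M values and leaving out each mouse. Added after seeing the data were tiles of 500 bases and the counts of CpGs without overlap at other depths. No pair of libraries shared more than 0.961% of their counts.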

Additional observations from a re-analysis of the deposited data

Results flagged for a closer look

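In 9 of 116 groups of 4 mice 1 mouse lay far from the other 3 by Dixon's criterion, which chance alone meets in about 1 of 20 groups. At the *Fzd5* CpG at 64735227, mid-aged mouse 3 had 78.24% beside 82.58 to 83.33%. In the mean of the *Fzd5* CpGs near the called ones, mid-aged mouse 4 had 88.21% beside 89.71 to 89.97%. Among promoters, *Wnt3* had 3.564% in young mouse 1 beside 2.495 to 2.633%, *Rspo4* had 4.151% in young mouse 1 beside 2.181 to 2.395%, and *Wif1* had 3.525% in young mouse 1 beside 4.55 to 4.666%. Young mouse 1 has the library with the fewest reads. *Wnt5a* had 17.25% in mid-aged mouse 1 beside 14.04 to 14.51%, and *Fzd3* had 3.408% in mid-aged mouse 3 beside 2.765 to 2.859%. *Sfrp1* had 2.821% in young mouse 2 beside 1.975 to 2.115%, and *Dkk3* had 29.73% in young mouse 2 beside 37.23 to 38.2%.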

How the results depend on the processing

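The differences at the 4 called CpGs of *Wnt5a* and *Fzd5* kept their direction under every alternative run for them. So did the means of the CpGs within 250 bases. The ages did not overlap in any of these, so leaving out 1 mouse could not reverse a direction. The coverage minimums, replicate block, M values and minimum difference left the percentages at the called CpGs as they were. Only thinning could have turned these CpGs. The *Wnt5a* promoter, which passed no test, turned from -0.258 to 0.143 percentage points with at least 10 reads, to 0.0709 without mid-aged mouse 3 and to 0.431 without young mouse 1. Other promoters named for high or low methylation also turned. *Fzd2* went from -1.90 to 0.640 without young mouse 1, and *Dkk3* from 0.695 to -1.42 without mid-aged mouse 3. Those of *Lrp5*, *Znrf3*, *Fzd1* and *Lgr4* turned under some alternatives, while *Fzd6*, *Lrp6* and *Wnt1* kept their direction. Calls moved with the method and with depth, and the causes were not tested. By limma on M values the called CpGs were 0 of the members, 0 of the other Wnt pathway genes and 40 of all CpGs, and with thinned reads they were 2, 6 and 917. With the replicate block they were 12 (11 higher in mid-aged mice), 14 and 2138. The replicate numbers gave no clear pairing of the mice. Correlations of same-numbered mice were -0.00252 to 0.00805, within the -0.00913 to 0.0101 of differently numbered mice. A weak pairing was not tested. Leaving out 1 mouse gave 1 to 16 member calls, 2 to 19 in the other pathway genes and 612 to 2405 in all. Member promoters and gene bodies past the test were 0 under each of the alternatives. All promoters past the test were 227 on M values, 0 with the replicate block and 2 to 8 with 1 mouse left out. All gene bodies past the test were 60 on M values, 13 with the replicate block and 36 to 77 with 1 mouse left out. Of 326 tiles of 500 bases in member genes 0 passed by limma (37 at an unadjusted p under 0.05), beside 56 of all 101304 tiles. On M values 1 of the 326 passed, beside 284 of the 101304. That tile lies at 64734500 of chromosome 1 in *Fzd5* (limma adjusted p = 0.0325). With a median of 25.5 to 66 reads per member CpG in young mice, a p over the threshold does not show that a CpG was equal at both ages.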
